A study of Rattus norvegicus with 20 samples.

Results

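Kupffer cells, the resident macrophages that line the sinusoids of the liver, were followed through their marker genes in the livers of 20 male Harlan Sprague-Dawley rats given IDDP, isodecyl diphenyl phosphate. This organophosphate is added to plastics to soften them and to slow burning. The genes were 10 listed markers, read from every probe set that the array annotation maps to exactly 1 of their symbols. This gave 9 probe sets for 8 genes, out of 14217 genes with a name on the array: Clec4f, Cd5l, C1qa, C1qb, C1qc, Csf1r, Cd163 and Cd68. No probe set was so named for Marco and Vsig4, which were not analysed here. Cd5l had 2 probe sets and the brighter one stands for the gene.

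The vehicle group was 5 rats gavaged with corn oil alone (0 mg/kg). The treated groups were 3 rats each at 66, 132, 263.6, 527.1 and 1054.2 mg/kg body weight of IDDP in corn oil. All 20 rats were gavaged on 4 days and killed on day 5, and RNA came from pieces of the left liver lobe, with 1 Affymetrix array per rat. Values are log2 intensities normalised by the authors. Because whole tissue was measured, fewer Kupffer cells and less of a transcript per Kupffer cell cannot be told apart.

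The tissue carried its own markers on every array. Of 12 measured hepatocyte genes, albumin (Alb) lay between 15.3 and 15.35, and transthyretin (Ttr) between 14.73 and 14.91. Others varied more between arrays, among them Ass1 (12.2 to 13.57) and Pck1 (12.46 to 14.21). As a gauge of RNA integrity, the array's actin and GAPDH controls near the 5' end were subtracted from those near the 3' end, a quantity that grows as RNA degrades. It was 1.24 to 1.89 log2 in controls and above 1.89 in 4 treated rats: 132 mg/kg replicate 2 (3.25), 263.6 mg/kg replicate 2 (2.47), 132 mg/kg replicate 1 (2.17) and 66 mg/kg replicate 2 (2.04). At 1054.2 mg/kg it was 1.55 to 1.74, inside the range of the controls.

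Kupffer cells clear particles, bacteria, old red cells and complement-coated material from portal blood. Clec4f is a C-type lectin found in rodents on Kupffer cells and little elsewhere, and Cd5l encodes a secreted scavenger-family protein of tissue macrophages. C1qa, C1qb and C1qc encode the chains that assemble into C1q, the recognition unit of the classical complement pathway. Csf1r encodes the receptor through which CSF1 and IL-34 keep macrophages alive, Cd163 the receptor for haemoglobin bound to haptoglobin, and Cd68 a glycoprotein of macrophage lysosomes. In rats CD163 and CD68 are the antigens of the ED2 and ED1 antibodies used to count resident and total macrophages.

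The 3 C1q genes lie side by side on chromosome 5 in RefSeq's gene table for rat (GRCr8), in the order C1qb, C1qc, C1qa. RefSeq promoter windows were matched for 7 of the 8 measured genes, with C1qc the one unmatched, and the 250 bases before the annotated start were searched on both strands. The C1qa and C1qb windows are shown as the matched windows of the C1q genes, and the Clec4f window because Clec4f is the marker most restricted to Kupffer cells. Capitals mark GAGGAA (the core bound by PU.1 and related ETS factors) and TGCTGA (a MAF half-site), on either strand, in the C1q windows. In Clec4f they mark the second copy of a direct repeat. All run 5′ to 3′ on the minus strand of GRCr8, at chr5:154419934-154420183, chr5:154407828-154408077 and chr4:117696408-117696657 in the order printed.
C1qa: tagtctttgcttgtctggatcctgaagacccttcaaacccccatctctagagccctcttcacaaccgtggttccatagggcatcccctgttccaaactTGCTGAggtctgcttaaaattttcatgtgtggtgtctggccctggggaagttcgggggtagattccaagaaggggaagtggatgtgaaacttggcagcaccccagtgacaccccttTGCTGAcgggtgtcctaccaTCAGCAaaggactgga
C1qb: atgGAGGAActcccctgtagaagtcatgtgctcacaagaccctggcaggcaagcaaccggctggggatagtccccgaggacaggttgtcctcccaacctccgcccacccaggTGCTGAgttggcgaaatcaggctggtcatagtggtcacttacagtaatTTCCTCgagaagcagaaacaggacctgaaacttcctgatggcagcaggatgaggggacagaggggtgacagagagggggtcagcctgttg
Clec4f: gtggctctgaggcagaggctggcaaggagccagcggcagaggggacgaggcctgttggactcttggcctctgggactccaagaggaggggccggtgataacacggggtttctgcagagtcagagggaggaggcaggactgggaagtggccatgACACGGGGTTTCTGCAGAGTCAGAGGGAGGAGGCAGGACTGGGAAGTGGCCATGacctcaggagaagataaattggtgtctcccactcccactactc
GAGGAA occurred in 4 of the 7 windows (Cd5l, C1qb, Cd68 and Csf1r), against 23.3% of 33469 windows of the same length. TGCTGA occurred in 3 of 7 (Cd5l, C1qb and C1qa), against 15.1%. The E-box CACGTG occurred in 0 of 7, against 5.6%. None of these motifs overlapped another in the windows shown. The Clec4f window holds a stretch of 54 bases repeated in tandem.

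At 1054.2 mg/kg, the highest dose, the comparison with vehicle asks which Kupffer cell markers differ after the largest exposure. The 8 genes had changes from -0.44 to -0.74 log2, with a median of -0.54, while the median over all 31042 probe sets was -0.01. Clec4f, Cd5l, C1qa, C1qb, C1qc and Csf1r fell, and Cd163 and Cd68 did not pass the threshold. These 6 of 8 stand beside 1.44% of all probe sets that were lower at this dose and 1.86% that were higher. In all 8 genes each treated rat lay below each control, a separation seen in 5.81% of all probe sets.

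Clec4f read 11.84, 11.90, 11.85, 12.11 and 11.63 in the 5 controls and 11.42, 11.38 and 11.20 at 1054.2 mg/kg. The highest treated rat was therefore below the lowest control. The fall was 1.45-fold (log2 change -0.54 ± 0.12 SE, adjusted p = 0.0149). Cd5l read 10.61, 10.81, 10.72, 11.10 and 10.48 in controls and 10.03, 10.19 and 10.04 at 1054.2 mg/kg, again with a gap between the groups. It fell 1.57-fold (-0.65 ± 0.14, adjusted p = 0.0107). The second Cd5l probe set was dim, at 5.63 ± 0.26 in controls (SD, n = 5) and 5.09 ± 0.23 at 1054.2 mg/kg (SD, n = 3). Its groups overlapped and its change of -0.54 ± 0.21 did not pass (adjusted p = 0.187).

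The 3 chains of C1q fell in the same rats. C1qb read 10.61, 10.26, 10.17, 10.49 and 10.16 in controls and 9.59, 9.56 and 9.64 at 1054.2 mg/kg. The treated rats differed from each other by under 0.1 and lay well below the controls. C1qb fell 1.67-fold (-0.74 ± 0.18, adjusted p = 0.0250). C1qa went from 11.16, 11.21, 11.16, 11.34 and 11.05 to 10.69, 10.71 and 10.79, a 1.37-fold fall (-0.46 ± 0.12, adjusted p = 0.0368). C1qc went from 10.45, 10.50, 10.32, 10.65 and 10.17 to 9.94, 9.85 and 9.91, a 1.44-fold fall (-0.52 ± 0.13, adjusted p = 0.0321). Each chain had no overlap between the groups.

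The chains are built into C1q in equal numbers, so their changes were set against each other within arrays. The change of C1qb minus that of C1qa was -0.29 log2 (exact two-sided permutation p = 0.0357), that of C1qb minus C1qc -0.22 (exact p = 0.0536) and that of C1qc minus C1qa -0.07 (exact p = 0.214). Over these 3 pairs, chosen after the values were seen, the adjusted p was 0.0804, 0.0804 and 0.214. A larger fall of C1qb was thus not established. All 3 treated rats had a lower C1qb minus C1qa difference than every control. These are the same values that gave the exact p of 0.0357, so they add no support, and the share of other gene pairs so separated was not computed.

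Among the receptors, Csf1r read 9.26, 9.09, 9.10, 9.45 and 8.96 in controls and 8.63, 8.54 and 8.74 at 1054.2 mg/kg. It fell 1.45-fold (-0.54 ± 0.13, adjusted p = 0.0216), with no overlap. Cd163 read 8.29, 8.70, 8.53, 8.79 and 8.14 in controls and 7.62, 8.03 and 7.75 at this dose. Its controls were spread over more than the controls of any other of the 8 genes, and the gap to the treated rats was narrow. The change was -0.69 ± 0.19 (adjusted p = 0.0518; 95% confidence interval -1.09 to -0.29). Cd68, the lysosomal marker, read 9.69, 9.56, 9.58, 9.86 and 9.46 in controls and 9.19, 9.13 and 9.25 at 1054.2 mg/kg. Its change was -0.44 ± 0.13 (adjusted p = 0.0681; interval -0.71 to -0.17), and its groups did not overlap either.

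**Figure D1:**
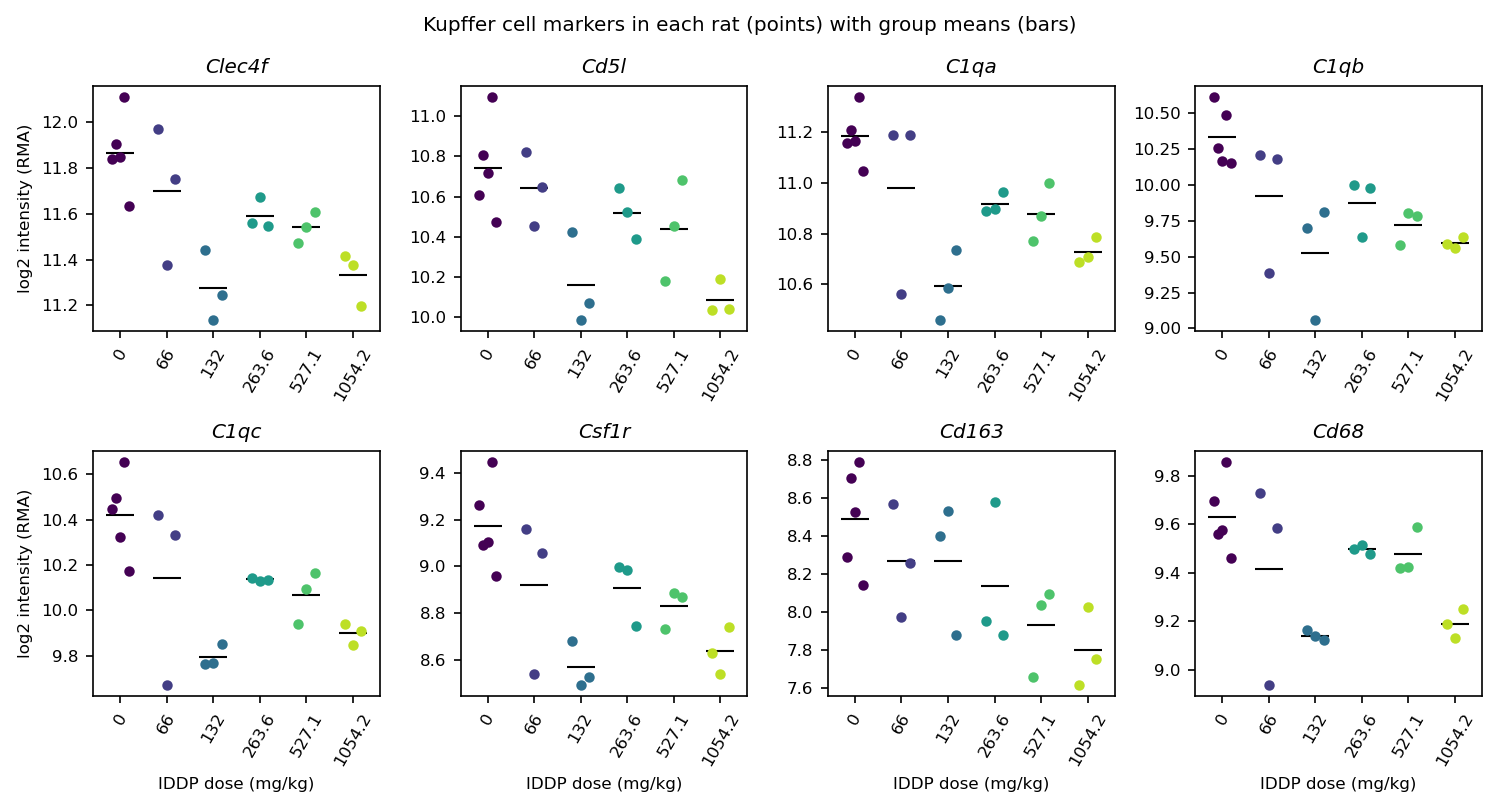
Each panel plots 1 Kupffer cell marker, with the IDDP dose in mg/kg on the x axis and the log2 intensity on the y axis; points are rats (5 controls, 3 per dose) and bars are group means. At 1054.2 mg/kg each rat lies below each control in all 8 panels, and at 132 mg/kg in all panels but Cd163.

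An exact permutation test over the 56 splits of the 8 rats gave p = 0.0179, the smallest it allows, for 7 of the genes at 1054.2 mg/kg and 0.0357 for Cd163, values that full separation of the groups largely fixes. The number past the threshold in limma depended on single rats. It was 0 when 1054.2 mg/kg replicate 3 was left out, and 2 on leaving out either other rat of that dose, control replicate 1 or control replicate 4. Clec4f and Cd5l lost their call only with replicate 3 of that dose left out (adjusted p = 0.111 and 0.0643). Across all probe sets the count went from 1024 to 405 without 1054.2 mg/kg replicate 3. Without 66 mg/kg replicate 2, which enters only through the shared spread, all 8 genes passed.

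The lower doses ask where along the dose range the markers first differ from vehicle. At 66 mg/kg limma called 0 of 8, beside 0% of all probe sets lower and 0.00644% higher. At an unadjusted p under 0.05 were 2 of 8, beside 3.24% of all probe sets, and 0 of 8 were free of overlap with the controls, beside 1.91%. Their changes ran from -0.41 to -0.10. The group held rats that did not resemble each other. Averaged over the 8 genes and relative to the control mean, replicates 1 and 3 stood at 0.03 and -0.10, inside the control range of -0.22 to 0.24, and replicate 2 stood at -0.62. In replicate 2 all 8 markers were below every control, by -0.28 (Cd5l) to -0.95 (C1qb) from the control mean. The list of 11 liver endothelial genes was at -0.59 in the same rat, against -0.14 to 0.12 in controls, and 3' minus 5' was 2.04. Their part in the low markers was not tested.

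At 132 mg/kg the changes of the 7 markers other than Cd163 ran from -0.81 to -0.49, beside -0.74 to -0.44 for the same genes at 1054.2 mg/kg; these doses were not tested against each other. Clec4f read 11.44, 11.14 and 11.25, C1qa 10.46, 10.59 and 10.73, and Cd68 9.16, 9.14 and 9.12, in replicates 1, 2 and 3. All of these lie below the lowest control of the same gene. The log2 changes were -0.59 ± 0.12 for Clec4f, -0.58 ± 0.14 for Cd5l, -0.59 ± 0.12 for C1qa, -0.81 ± 0.18 for C1qb, -0.63 ± 0.13 for C1qc, -0.60 ± 0.13 for Csf1r and -0.49 ± 0.13 for Cd68. The limma fit called 0 of 8, beside 0.0322% of all probe sets lower and 0.0354% higher, and 7 of 8 had an unadjusted p under 0.05, beside 14.9% of all probe sets. The adjusted p of these 7 lay between 0.0635 (C1qa) and 0.126 (Cd68). Every treated rat was below every control for these 7 genes, against 3.85% of all probe sets. The exact permutation test, not planned for this dose, gave p = 0.0179 for each of the 7 and 0.339 for Cd163. As at 1054.2 mg/kg, the separation of the groups largely fixes the value of 0.0179.

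Cd163 had the smallest change at this dose, a difference from the other markers that was not tested. It read 8.40, 8.53 and 7.88 at 132 mg/kg, so that replicates 1 and 2 were inside the range of the controls and replicate 3 was below it. Its change was -0.22 ± 0.19 (adjusted p = 0.600; interval -0.62 to 0.18) and ran from -0.35 to -0.02 as each rat was left out in turn. In replicate 2, where C1qb was at 9.06 and Clec4f at 11.14, the lowest values of these genes in any rat, Cd163 was at 8.53, close to its control mean of 8.49. That array had the largest 3' minus 5' difference of all 20.

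Measures of RNA integrity moved with the 132 mg/kg group, at 2.31 ± 0.89 (SD, n = 3) against 1.64 ± 0.27 in controls (SD, n = 5). Replicate 3 of this dose had 1.49, within the range of the controls, and all 8 of its markers were below every control, with a mean of -0.575. At 263.6 mg/kg replicate 2 had 2.47 and a mean of -0.24, with 3 of 8 markers below every control. With the 3' minus 5' difference as a covariate, the changes at 132 mg/kg were -0.57 for Clec4f, -0.49 for C1qb and -0.50 for Cd163, and 0 of 8 passed. Without replicate 2 they were -0.52, -0.58 and -0.35, and again 0 passed. The count was 6 without 66 mg/kg replicate 2, 5 without 132 mg/kg replicate 3 and 1 without control replicate 5. Over all probe sets, the number past the threshold at this dose went from 21 to 1482 without 132 mg/kg replicate 3.

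**Figure D2:**
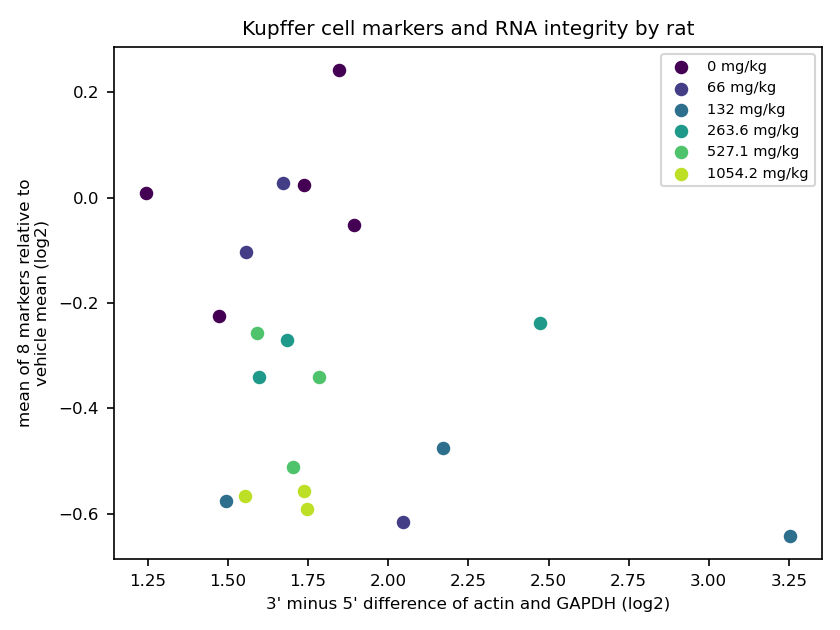
Each point is 1 rat, with the 3' minus 5' difference of actin and GAPDH (log2) on the x axis and the mean of the 8 markers relative to the control mean (log2) on the y axis, coloured by dose. The rats at 1054.2 mg/kg lie between 1.55 and 1.74 on the x axis with means from -0.59 to -0.56, and 132 mg/kg replicate 3 lies at 1.49 and -0.575.

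At 263.6 and 527.1 mg/kg most of the markers lay between vehicle and the highest dose. Clec4f read 11.56, 11.67 and 11.55 at 263.6 mg/kg and 11.47, 11.54 and 11.61 at 527.1 mg/kg. C1qb read 10.00, 9.64 and 9.98, then 9.58, 9.80 and 9.79. Cd68 read 9.50, 9.51 and 9.48, then 9.42, 9.42 and 9.59, and so overlapped the controls at both doses. At 263.6 mg/kg the changes ran from -0.46 (C1qb) to -0.13 (Cd68), with 0 of 8 past the threshold in limma, beside 0.155% lower and 0.274% higher. An unadjusted p under 0.05 was found for 4 of 8, beside 11.9% of all probe sets. C1qa, C1qb and C1qc had no overlap with controls, 3 of 8 against 4.18%.

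At 527.1 mg/kg the changes ran from -0.61 ± 0.18 (C1qb, adjusted p = 0.0929) to -0.15 ± 0.13 (Cd68, adjusted p = 0.674). Past the threshold in limma were 0 of 8, beside 0.483% lower and 1.19% higher, and 7 of 8 had an unadjusted p under 0.05, beside 13.6% of all probe sets. Of the 8, 6 had no overlap with controls, against 4.85%. The count was 1 without 66 mg/kg replicate 2 or without 132 mg/kg replicate 2. Cd163 read 7.66, 8.04 and 8.10 at this dose, all below the lowest control (-0.56 ± 0.19, adjusted p = 0.163).

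**Figure D3:**
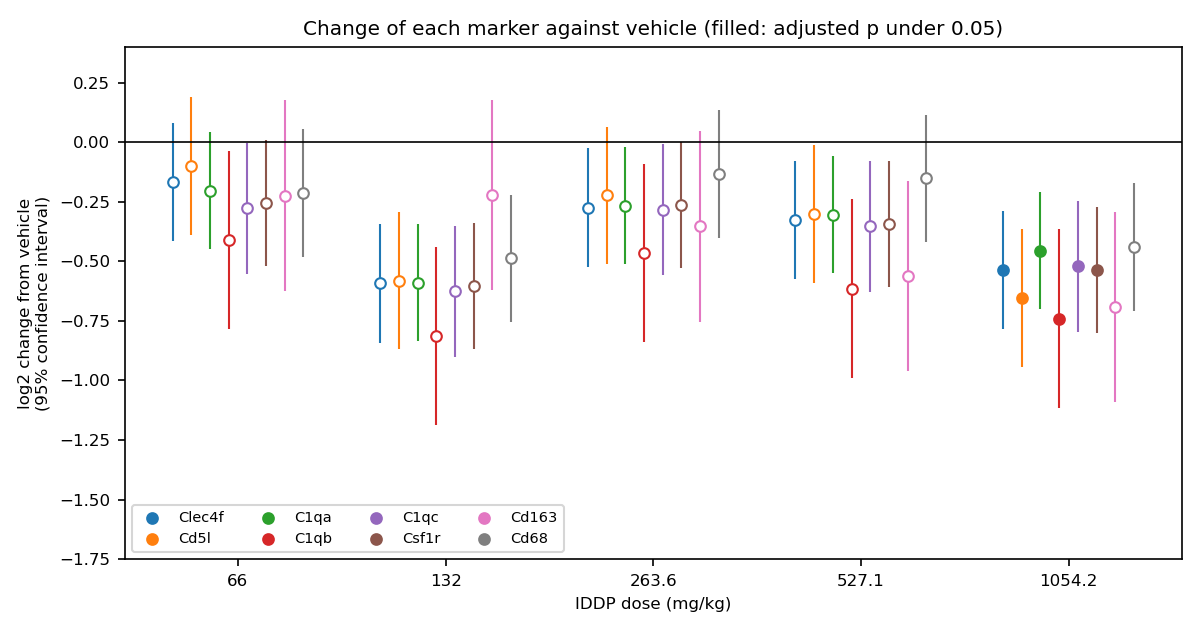
Log2 change of each of the 8 markers from vehicle (y axis) at each IDDP dose in mg/kg (x axis), with 95% confidence intervals from the limma model; filled points passed an adjusted p of 0.05. At 132 mg/kg 7 markers lie between -0.81 and -0.49 with Cd163 at -0.22, and at 1054.2 mg/kg all 8 lie between -0.74 and -0.44.

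The low values at 132 mg/kg were set against the next doses in contrasts added after they were seen. Against 263.6 mg/kg, the differences at 132 mg/kg were -0.36 to -0.32 log2 for 7 of 8 markers and 0.13 for Cd163. The limma contrast called 0 of 8, beside 0% of all probe sets in either direction, and 6 of 8 had an unadjusted p under 0.05, beside 9.31%. Against 527.1 mg/kg it called 0 of 8, beside 0.0226% lower and 0.0129% higher, and 2 of 8 had an unadjusted p under 0.05, beside 8.75%. A dip at 132 mg/kg was thus not separated from the doses above it after adjustment. For Clec4f the difference from 263.6 mg/kg was -0.32 (interval -0.60 to -0.04), and for Cd68 -0.36 (interval -0.66 to -0.06).

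The top of the dose range asks whether the highest dose went beyond the next. Between 1054.2 and 527.1 mg/kg limma called 0 of 8, beside 0.00322% lower and 0.00966% higher. Only Cd5l, 1 of 8, had an unadjusted p under 0.05, beside 6.08% of all probe sets. The differences ran from -0.35 (Cd5l, interval -0.67 to -0.03) to -0.13 (C1qb, interval -0.55 to 0.29). Against 66 mg/kg, a comparison that does not use the controls, the differences ran from -0.56 ± 0.15 (Cd5l, adjusted p = 0.167) to -0.23 ± 0.14 (Cd68, adjusted p = 0.864). Here too limma called 0 of 8, beside 0.187% lower and 0.309% higher, and 3 of 8 had an unadjusted p under 0.05, beside 7.33%.

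Across all 6 groups, a slope on the rank of the dose (0 to 5) asks whether a marker tends to rise or fall with dose. A linear slope can pass without a change in the same direction at each step. Cd163, Cd5l, C1qb and Clec4f had a falling slope past the threshold, 4 of 8 beside 2.08% of all probe sets falling and 2.97% rising. Cd163 had the steepest slope and the smallest p, at -0.13 ± 0.03 log2 per dose step (adjusted p = 0.0106). Its group means were 8.49, 8.27, 8.27, 8.14, 7.93 and 7.80 from vehicle to 1054.2 mg/kg. Neighbouring doses in that order overlapped in each case. The other slopes were -0.10 ± 0.03 for Cd5l (adjusted p = 0.0303), -0.13 ± 0.04 for C1qb (0.0334) and -0.09 ± 0.03 for Clec4f (0.0386). The means of these genes did not fall at each step. From 132 to 263.6 mg/kg they went from 10.16 to 10.52 (Cd5l), 9.52 to 9.87 (C1qb) and 11.28 to 11.59 (Clec4f). C1qa, C1qc, Csf1r and Cd68 did not pass (0.0952, 0.0870, 0.0653 and 0.288). The dim second probe set of Cd5l did not pass either (-0.07 ± 0.04, adjusted p = 0.496).

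The slope of Cd163 passed without any 1 of the 20 rats (adjusted p up to 0.0332), and not without the whole 1054.2 mg/kg group (0.106). The count of 4 was less stable. It was 7 without 66 mg/kg replicate 2 and 7 without the 132 mg/kg group, 2 without control replicate 1 or 66 mg/kg replicates 1 or 3, and 1 without control replicates 2, 3 or 4, 527.1 mg/kg replicate 1 or 1054.2 mg/kg replicates 2 or 3. All 8 slopes were below 0, while 50.2% of all probe sets had a slope below 0.

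Other genes of macrophages were read from a separate list of 24, of which 20 were measured. At 1054.2 mg/kg 1 of 20 fell and 19 did not pass, beside 1.44% of all probe sets lower and 1.86% higher. In either direction 11 of 20 had an unadjusted p under 0.05, beside 15.1% of all probe sets. Changes were below 0 in 16 of 20, beside 51.5%, with a median of -0.355. The gene that fell was Ctss, which encodes the lysosomal protease cathepsin S (-0.61 ± 0.14, adjusted p = 0.0147), and its call was lost when 1054.2 mg/kg replicate 1 was left out (0.0713). The mannose receptor gene Mrc1 (-0.53 ± 0.15, adjusted p = 0.0552), the lysozyme gene Lyz2 (-0.68 ± 0.19, 0.0540) and the macrophage adhesion receptor gene Adgre1 (-0.63 ± 0.21, 0.118), did not pass. Cd14, a co-receptor for bacterial lipopolysaccharide, had a value above the controls (0.62 ± 0.21, adjusted p = 0.123). At 132 mg/kg 0 of 20 passed in limma, beside 0.0322% of all probe sets lower and 0.0354% higher. Here 10 of 20 had an unadjusted p under 0.05, beside 14.9%. Changes were below 0 in 19 of 20, beside 53.8%, and the median was -0.36. The genes named here besides Ctss were chosen after their values were seen.

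Of 8 measured transcription factors of the Kupffer cell programme, Irf8, a regulator of the myeloid lineage, fell at 1054.2 mg/kg (-0.47 ± 0.13, adjusted p = 0.0448) and 7 did not pass. The median of the list was -0.08, and 1.44% of all probe sets were lower at this dose. Irf8 lost its call when array medians were centred, and in 11 of 20 fits with 1 rat left out, among them each control (adjusted p up to 0.234, without 1054.2 mg/kg replicate 2). Among 8 ligands and complement partners, Il34, which encodes a ligand of CSF1R, fell (-0.42 ± 0.11, adjusted p = 0.0438) and 7 did not pass. Il34 lost its call under the same centring and in 10 of 20 such fits (up to 0.253, without the same rat). Csf1, C1r, C1s and Hp are given for their ties to the markers, with their values known. Csf1, the other ligand, had a change of -0.04 ± 0.12 (adjusted p = 0.927). C1r and C1s, the proteases that bind C1q, had -0.10 ± 0.16 and -0.23 ± 0.12, and Hp, haptoglobin, had 0.02 ± 0.07. Of 10 antigen presentation genes 0 passed in limma, and 6 had an unadjusted p under 0.05, beside 15.1% of all probe sets. Changes were below 0 in 9 of 10, beside 51.5% of all probe sets, with a median of -0.536. RT1-Bb had the largest change with a wide error (-0.81 ± 0.97, adjusted p = 0.777).

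Markers of other cell types moved with the Kupffer cell markers in part. The 15 stellate cell and fibroblast genes had 6 lower and 9 that did not pass at 1054.2 mg/kg, beside 1.44% of all probe sets lower. Their median was -0.395, and 8 of 15 had an unadjusted p under 0.05, beside 15.1% of all probe sets. Among the 6 lower genes were Lrat, which makes retinyl esters (-0.86 ± 0.21, adjusted p = 0.0300), and the receptor gene Pdgfrb (-0.77 ± 0.15, 0.00585). Pdgfrb lost its call only without 1054.2 mg/kg replicate 3, and Lrat in 7 of 20 fits with 1 rat left out, namely control replicates 1 to 4 and each rat at 1054.2 mg/kg (adjusted p up to 0.106). The mean of the list per rat was -0.47 to -0.32, against -0.25 to 0.10 in controls. The 11 endothelial genes had a mean per rat of -0.44 to -0.13, against -0.14 to 0.12 in controls. An unadjusted p under 0.05 was found for 7 of 11, beside the same 15.1%. Of the 11, 2 were lower past the threshold, Gpr182 (-0.53 ± 0.12, adjusted p = 0.0119) and Pecam1 (-0.51 ± 0.12, 0.0160). Leaving out 1054.2 mg/kg replicate 2 ended the call of both, and leaving out replicate 3 that of Gpr182 (adjusted p up to 0.0904 for Pecam1 and 0.115 for Gpr182). The mean of the 8 Kupffer cell markers was -0.59 to -0.56 in the same rats, against -0.22 to 0.24 in controls. At 527.1 mg/kg 1 of the 11 endothelial genes was lower, Gpr182 (-0.50 ± 0.12, adjusted p = 0.0286), beside 0.483% of all probe sets. Whether the falls in these cell types differ was not tested.

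Of 14 T and NK cell genes, 9 neutrophil and monocyte genes and 5 B cell genes, 0 passed in limma at 1054.2 mg/kg. Of all probe sets 1.44% were lower and 1.86% higher. The medians of the lists were -0.119, -0.146 and -0.135. An unadjusted p under 0.05 was found for 2 of 14, 1 of 9 and 1 of 5. These counts were near the 15.1% of all probe sets. Changes were below 0 in 13 of 14, 8 of 9 and 5 of 5, beside 51.5% of all probe sets. The largest changes were in Ccl5 (-0.47 ± 0.17, adjusted p = 0.160), S100a8 (-0.40 ± 0.33, 0.644) and Jchain (-0.38 ± 0.28, 0.595). T and NK cell means per rat were -0.25 to -0.03, against -0.07 to 0.07 in controls. The genes of this list differed in brightness. Over all arrays the T cell receptor subunits Cd3d, Cd3g and Cd3e read 4.60 to 5.25, 4.94 to 5.53 and 5.77 to 6.42. Lck read 7.64 to 8.08 and Ccl5 8.46 to 9.50. Of 6 erythroid genes 0 passed, and 2 had an unadjusted p under 0.05, beside the same 15.1% of all probe sets. Their changes were below 0 in 6 of 6, beside 51.5%. The mean of the erythroid genes per rat was -0.64 to -0.05, against -0.15 to 0.35 in controls. Alas2, of haem synthesis in red cells, had a change of -0.91 ± 0.26 (adjusted p = 0.0635). Of 12 hepatocyte genes Cyp2c11 fell (-0.83 ± 0.10, adjusted p = 6.25e-05) and 11 did not pass, and of 8 cholangiocyte genes Epcam rose (0.65 ± 0.12, adjusted p = 0.00448) and 7 did not pass. The part of blood or of other cell types in the marker changes was not tested.

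**Figure D4:**
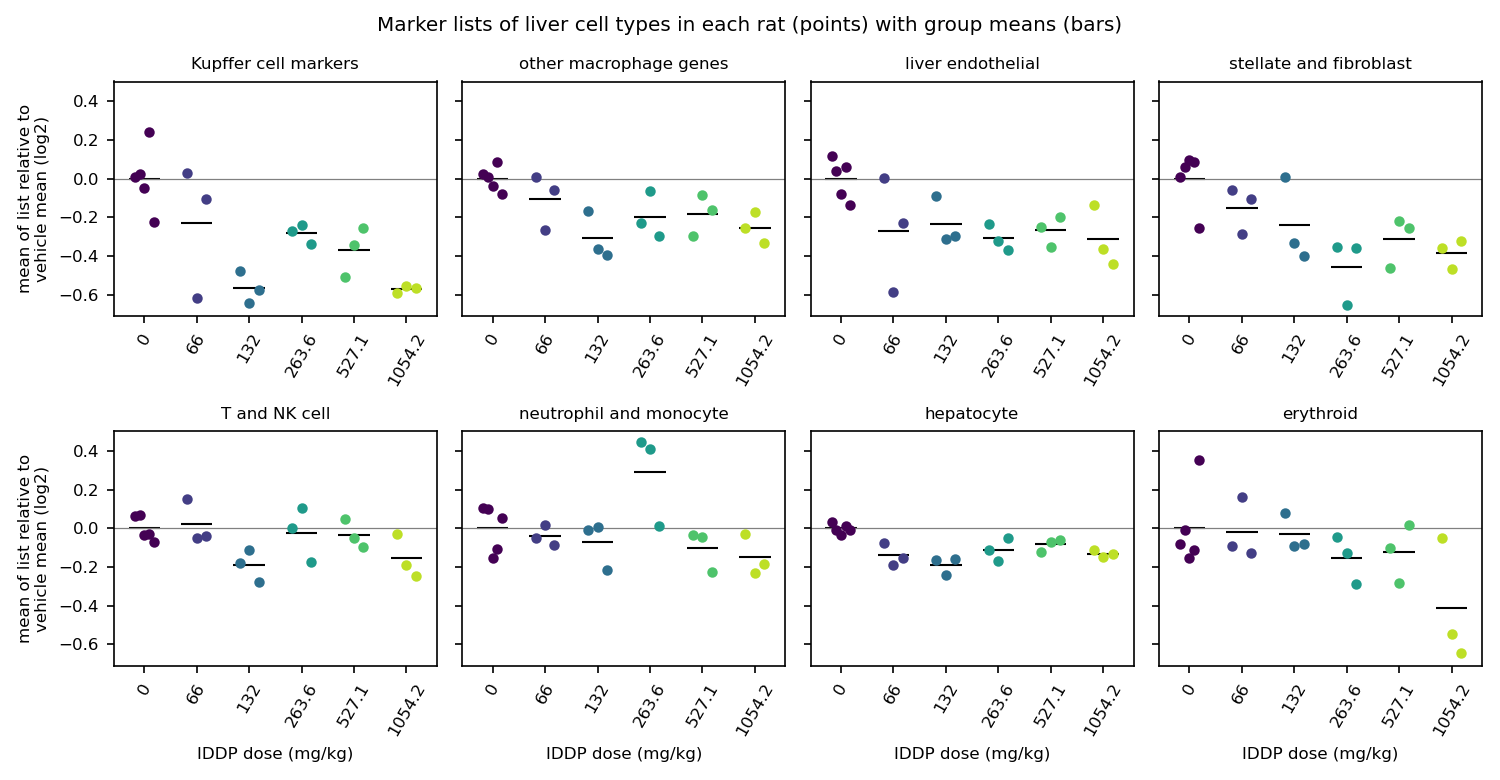
Mean of each marker list in each rat relative to the control mean (log2, y axis) by IDDP dose in mg/kg (x axis); points are rats and bars are group means. The Kupffer cell markers lie at -0.64 to -0.48 at 132 mg/kg and -0.59 to -0.56 at 1054.2 mg/kg, and the neutrophil and monocyte genes lie at 0.01 to 0.45 at 263.6 mg/kg.

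Genes whose levels followed the 8 markers most closely were ranked over the 20 arrays by Pearson's r with the mean of the markers, as a description with no test, since the arrays share dose groups. The highest of 14209 genes was Ccl6, a chemokine gene (r = 0.961, Spearman's rho = 0.953). After it came Ctss, Itgb2, which encodes the beta-2 integrin of leukocytes, Fcer1g, an Fc receptor subunit, Olfml3, Pltp, which transfers phospholipids between lipoproteins, Dnase1l3, a secreted nuclease, Ccl5, Pde2a and Rac2, a GTPase of blood cells. Their r lay between 0.864 and 0.961. With dose group means subtracted it lay between 0.634 (Rac2) and 0.919 (Ccl6); these genes were picked on the same arrays, so this is no separate support. Of these 10 genes 3 were in the lists described above.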

How the data were processed

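Liver RNA of 20 rats was measured on Affymetrix arrays, and the titles' doses set the groups. Per the submitters' processing notes the authors used RMA, and the values they deposited are log2 intensities. The RMA version, and whether all arrays went through it in 1 run, is not given in the sources used here. RMA equalises the arrays, so changes are relative to the whole array. The table held 31099 probe sets, of which 57 Affymetrix controls were left out and 31042 tested with no filter on brightness. Of these, 20826 carried exactly 1 symbol in the array annotation, 436 several and 9780 are unnamed here.

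In limma 3.58.1 (R 4.3.3) all arrays entered 1 fit of group means with empirical Bayes moderation; residual degrees of freedom were 14 and prior ones 5.75. The two-sided p-values were Benjamini-Hochberg adjusted across the whole table, with a threshold of 0.05. Changes are given with standard errors. Exact permutation tests used all splits of the rats compared. The model was tested on simulated data. The number of arrays limits the precision, and p-values measure spread between rats.

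A gene with several probe sets was represented by the one of highest mean. All members were named. In each other list up to 4 passing genes of largest change at the highest dose could be named, or, if none passed, the largest. The 10 genes most like the markers were named too. Hepatocyte and T cell genes given only with their range over the arrays were named outside this rule, with their values known. Any others are said to be chosen later. The members and lists were chosen with earlier results of these data known. Promoter windows came from RefSeq (GRCr8). The replicate numbers were not taken as a pairing of the arrays. Alternatives covered scaling, dim probe sets, probe set choice, variance moderation, RNA integrity, the replicate block, the scale of dose and each array left out.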

Additional observations from a re-analysis of the deposited data

Results flagged for a closer look

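Control groups were examined for 1 rat far from the other 4, in 39 sets of values, and chance alone marks about 1 in 20 of such groups. None of the 9 Kupffer cell probe sets was marked. Control replicate 4 had the highest mean of the antigen presentation list (0.343, against -0.167 to -0.039 in the others). Control replicate 5 had the lowest mean of the stellate and fibroblast list (-0.253, against 0.009 to 0.097) and the highest of the erythroid list (0.353, against -0.153 to -0.007). Control replicate 2 had the lowest mean of the B cell list (-0.162, against 0.011 to 0.077), and control replicate 3 the lowest Epcam (8.96, against 9.26 to 9.32).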

How the results depend on the processing

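Direction was checked for the Kupffer cell markers and, at 1054.2 mg/kg against vehicle, for the genes named by rule from the other lists. None of these past the threshold changed its direction under any alternative run. The number of markers past the threshold at 1054.2 mg/kg was 6, and 5 to 8 under the scaling, filter, probe set, moderation and RNA integrity alternatives; with the replicate block it was 3. At 132 mg/kg it was 0, and 2 with dim probe sets left out, 5 after quantile normalization was applied again and 2 with the brightest probe set per gene. At 527.1 mg/kg it was 0, and 1 with only the groups compared, 1 with RNA integrity as a covariate and 1 without the array of largest 3' minus 5' difference. For the slope it was 4, and 2 after quantile normalization again, 1 with the replicate block, 1 for a slope on mg/kg, 0 without the 1054.2 mg/kg group and 7 without the 132 mg/kg group, the last chosen after seeing the data. Leaving out each array in turn gave 0 to 6 at 132, 0 to 1 at 527.1, 0 to 8 at 1054.2 mg/kg and 1 to 7 for the slope, and 0 at 66 and 263.6 mg/kg and in the contrasts between doses. The exact test passed for 8 of 8 at 1054.2 mg/kg and for 4 to 8 with an array left out. At 132 mg/kg it passed for 6 to 7 with an array left out. The causes were not tested. Same-numbered rats of different doses had residuals correlated between -0.35 and 0.47 (median 0.07, 45 pairs). Rats of different numbers had -0.59 to 0.38 (median -0.02, 120 pairs). Of 18 arrays 7 correlated best with their own number, with no rate by chance computed. The numbers were not taken as a pairing, and a batch shared by number was not tested. With 3 rats per dose and 5 controls, the standard error of a marker's change was 0.12 to 0.19 log2.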

Other observations

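Other lists showed values that the comparisons above do not cover. The mean of the 12 hepatocyte genes was below every control in each of the 15 treated rats, at -0.24 to -0.05 against -0.03 to 0.04, with the lowest group mean at 132 mg/kg (-0.19). At that dose 0 of 12 passed in limma, beside 0.0322% of all probe sets lower and 0.0354% higher. Changes were below 0 in 10 of 12, beside 53.8%. They were uneven, from -0.66 (Ass1) and -0.56 (Pck1) to 0.008 (Alb) and 0.045 (Apoa1), genes chosen after their values were seen. No share over all probe sets was computed for list means. The 9 neutrophil and monocyte genes had means of 0.45, 0.41 and 0.01 at 263.6 mg/kg, against -0.15 to 0.10 in controls. The 6 erythroid genes had means of -0.05, -0.55 and -0.64 at 1054.2 mg/kg, against -0.15 to 0.35 in controls. In 1054.2 mg/kg replicate 1, which had the highest erythroid mean of its group, the 8 Kupffer cell markers were at -0.59, beside -0.56 and -0.57 in the other rats of that dose.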
